A study of Mus musculus with 103 samples.

Results

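The 14 primary liver tumours of mice that the labels name hepatocellular carcinoma/cholangiocarcinoma (HCC/CC) were compared with 5 samples of untreated liver cells sorted for Prom1, together 19 samples of a study that holds 84 others. Samples were chosen by label alone, as the dissected primary HCC/CC tumours without metastases and the untreated sorted cells whose source was liver. The study traced Prom1-expressing cells and targeted cancer genes to them in several mouse organs, and each sample was measured on 1 Affymetrix HT MG-430 PM array. The untreated liver cells are described as normal primary cells: livers were dissociated, red cells lysed and dead cells removed, cells were bound to anti-Prominin1 magnetic beads, and RNA was extracted with a PicoPure kit. The HCC/CC tumours were dissected without sorting and extracted with an RNeasy Mini kit, so that they hold every cell type of the tumour. For neither group do the labels give the oncogenic allele, the Cre driver, the strain, the sex or the age. Whether each sample stands for an animal of its own is not stated, and the p-values therefore describe the scatter among these arrays, part of which may be technical. Tumour, dissection and extraction kit changed together between the groups and cannot be told apart. Sex, as read from the sex-linked transcripts given below, also changed with the group for most tumours. In such bulk samples, fewer cells of a type and less RNA per cell cannot be told apart either.

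Prom1 encodes prominin-1 (CD133), a pentaspan protein of membrane protrusions that is known in liver as a marker of bile duct cells and of progenitor cells. Hepatocytes make plasma proteins, urea and bile acids and oxidise drugs with cytochrome P450 enzymes, whereas bile duct cells express keratins 7 and 19 and Epcam. Hepatocellular carcinoma takes after hepatocytes and can switch on genes of the fetal liver such as Afp, cholangiocarcinoma takes after bile ducts, and mixed tumours hold both. The liver's sinusoids are lined by a specialised endothelium and hold resident macrophages, the Kupffer cells.

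Levels are on the log2 scale of the deposited values, where 1 unit is a 2-fold difference. A level is given per sample or as the lowest, median and highest of the 14 tumours, and a difference is the tumour mean minus the mean of the untreated cells, ± its standard error. Genes were tested where the mean of at least 1 group exceeded 4.07, the 40th percentile of all values. A gene is said to have risen or fallen where limma's Benjamini-Hochberg adjusted p over all 11075 tested genes was under 0.05 and the difference at least 1. Levels under 4.07 lie near the background of the array, where the array resolves differences poorly.

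The marker used for sorting was checked first. Prom1 lay at 3.97, 2.94, 2.64, 3.46 and 4.24 in untreated samples 1 to 5 and from 2.96 to 10.96 (median 7.74) in the tumours. Thus 4 of the 5 samples sorted for the protein had a Prom1 level near background, while 11 of 14 tumours exceeded every untreated sample, and tumours 5, 7 and 14 lay at 2.96, 3.47 and 3.02. Prom1 rose by 3.63 ± 1.02 (adjusted p 0.0077). The hepatocyte marker albumin was near the top of the array's range, 14.36, in both groups, with untreated samples at 13.77, 13.48, 13.74, 13.73 and 13.80 and tumours from 13.14 to 14.08 (median 13.95).

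The samples of a group were not alike in quality or makeup. The 75th percentile of an array's values was 6.434 to 6.672 in the tumours, 6.538 in untreated sample 1 and 6.141 to 6.23 in untreated samples 2 to 5. The signal of the Gapdh control probes at the 3' end minus that at the 5' end, which grows with RNA degradation, was 0.15 to 0.703 in the tumours and 0.899 to 1.229 in the untreated cells, without overlap, and that of actin was 0.666 to 1.293 against 1.047 to 1.727. These values moved with the comparison as a whole, and their part in the differences was not tested. Untreated sample 1 also carried transcripts of exocrine pancreas, and untreated samples 1 and 2 more endothelial RNA than samples 3 to 5 (given with those genes). The transcript of the inactive X chromosome, Xist, and the Y-linked Eif2s3y set the groups apart. Xist was 3.64, 4.04, 5.38, 4.15 and 4.81 in the untreated cells and 4.02 and 4.66 in tumours 11 and 13, but 9.18 to 11.53 in the other tumours. Eif2s3y was 7.97, 7.08, 9.16, 8.52 and 8.84 in the untreated cells and 7.76 and 9.03 in tumours 11 and 13, and at most 3.22 in the others. The 5 untreated samples and tumours 11 and 13 thus had the pattern of male tissue, and the other 12 tumours that of female tissue. For those 12 tumours, sex and tumour cannot be told apart in this comparison. The closest pair of arrays, tumours 9 and 12, had a Pearson r of 0.976 and still differed by up to 6.59, so that no array was a copy of another.

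More genes rose than fell in the tumours, and the split depended on how the arrays were scaled. Of 11075 genes tested with 17 residual degrees of freedom, 1925 (17.4%) rose and 690 (6.23%) fell, so that 73.6% of the calls were increases. The median difference over all tested genes was 0.30, and every list described here is to be read against that shift and those shares. After quantile normalization the median was 0.01, 1218 genes rose and 1207 fell, and 50.2% of the calls were increases. After centring each array on its median the figures were -0.11, 995, 1508 and 39.8%. The 5 tumours whose title number is below 100 gave 933 and 216 calls, and untreated sample 1 as the only control gave 258 and 616. Among all tested genes, called or not, every tumour lay above every untreated sample for 589 (5.32%) and under every untreated sample for 210 (1.9%).

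The 15 largest increases without overlap were led by Lcn2. Lipocalin-2 (Lcn2), a protein that binds bacterial siderophores and is released in the acute phase response, was 3.15, 5.30, 7.19, 3.78 and 4.28 in the untreated cells and from 10.66 to 13.22 (median 12.89) in the tumours. Every tumour lay at least 3 units above the highest untreated sample, and the difference was 8.04 ± 0.46 (adjusted p 3.1e-10). Ubd, a ubiquitin-like protein induced by inflammatory cytokines, was 3.06, 3.74, 2.62, 3.54 and 3.95 in untreated cells and from 6.04 to 11.82 (median 10.54) in the tumours. Its untreated samples were all near background and its difference was 6.61 ± 0.72 (adjusted p 2.7e-06). Ly6d, a surface protein anchored by a lipid, had untreated levels of 3.63, 6.29, 3.99, 4.55 and 4.88 and tumour levels from 9.22 to 11.39 (median 11.01). The SD over the tumours was 0.55, and the difference was 6.21 ± 0.34 (adjusted p 2.7e-10).

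Rragd, a Rag GTPase through which amino acids activate mTORC1, was 3.81, 3.34, 3.62, 2.95 and 3.84 in untreated cells and from 3.85 to 10.38 (median 9.38) in the tumours. A single tumour lay close to the untreated cells, and the difference was 5.15 ± 0.76 (adjusted p 4.8e-05). Sox4, a transcription factor of progenitor cells, was 7.51, 5.63, 3.28, 3.30 and 5.33 against from 8.30 to 11.26 (median 9.90), so that untreated sample 1 stood closest to the tumours at a difference of 4.87 ± 0.56. The 5 probe sets of Sox4 differed by 1.03 to 4.87. Osbpl3, a lipid-binding protein of the oxysterol-binding family, differed by 4.84 ± 0.30 with a tumour SD of 0.57. The non-coding transcript of the Gt(ROSA)26Sor locus, a site widely used to insert conditional alleles in mice, was 3.33, 3.09, 2.53, 3.06 and 5.18 in the untreated cells and from 6.92 to 9.72 (median 7.91) in the tumours. All tumours exceeded all untreated cells there, by 4.77 ± 0.46 on average (adjusted p 7.5e-07). The other increases among the 15 largest without overlap were the prohormone-processing carboxypeptidase Cpe (5.41 ± 0.87), the secreted Wfdc2 (5.07 ± 0.45), Clca3a2 (4.92 ± 0.64), the chitinase-like protein Chil3 (4.59 ± 1.18), Gipc2 (4.55 ± 0.43), the sulfotransferase Sult2a2 (4.44 ± 1.26), the cytochrome Cyb561 (4.38 ± 0.55) and the carbonyl reductase Cbr3 (4.32 ± 0.46). Chil3 and Sult2a2 varied most among the tumours, from 3.27 to 11.22 and from 3.29 to 11.86. Clca3a2 and Chil3 belong to families of similar genes, and the probes may read more than 1 member. Clca3a2 was not called with the mean of its probe sets (2.29, adjusted p 0.054) or with those left out that can match several transcripts (1.02, 0.53).

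**Figure D1:**
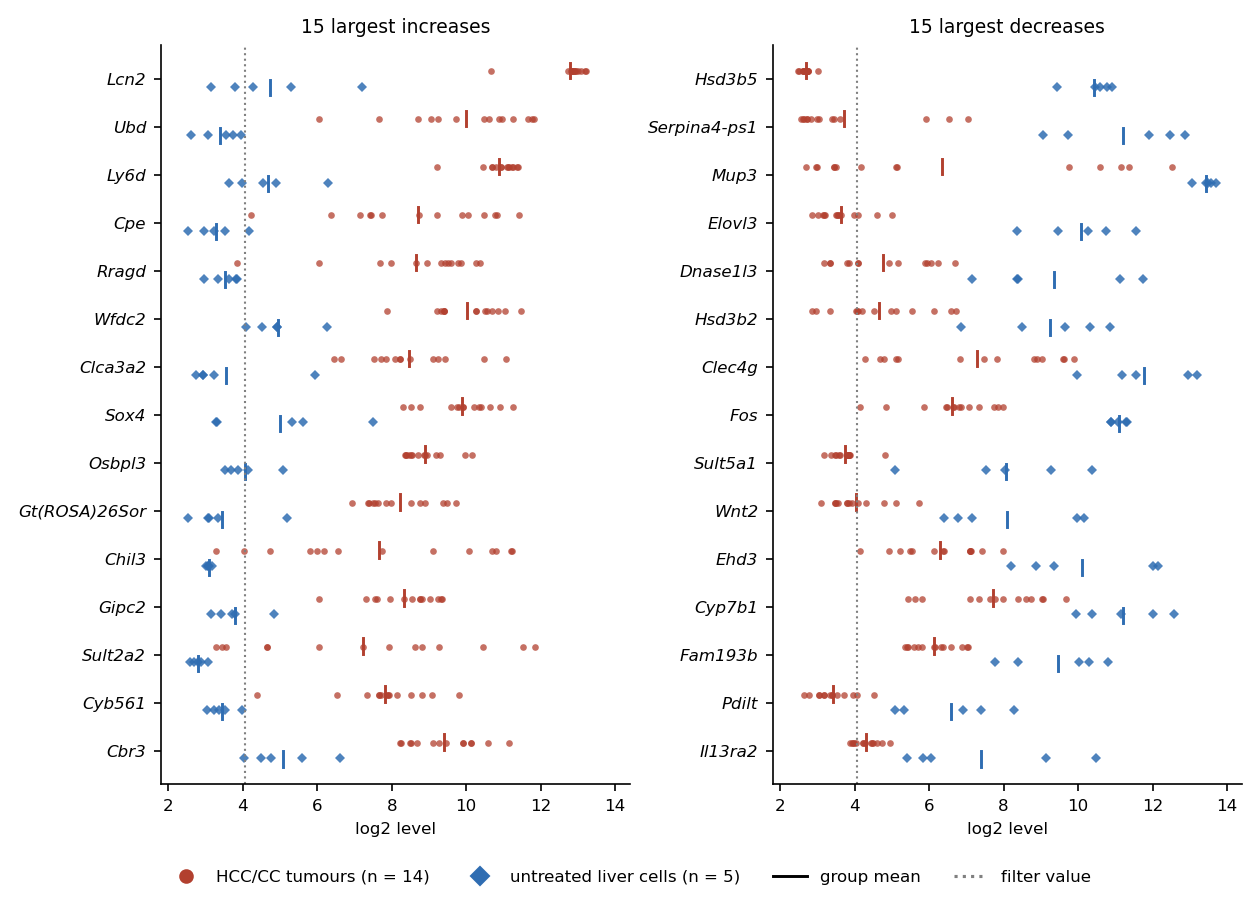
Log2 level of the 15 largest increases (left) and 15 largest decreases (right) among called genes whose groups do not overlap, with 1 point per sample, bars at the group means and a line at the filter value of 4.07. Lcn2 in the 14 tumours sits between 10.66 and 13.22, above all 5 untreated samples, and Hsd3b5 between 2.49 and 3.02, under all of them.

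The 15 largest decreases without overlap included genes of steroid and fatty acid metabolism and genes of sinusoidal endothelium. Hsd3b5, a steroid dehydrogenase of male mouse liver, was 10.45, 9.44, 10.91, 10.77 and 10.58 in untreated cells and from 2.49 to 3.02 (median 2.70) in the tumours. Every tumour was under the filter value, and the difference was -7.74 ± 0.18 (adjusted p 2.9e-17). The serpin pseudogene Serpina4-ps1 was 9.74, 9.06, 12.86, 11.91 and 12.46 in the untreated cells and from 2.55 to 7.03 (median 3.02) in the tumours, a difference of -7.49 ± 0.77. Elovl3, an enzyme that lengthens fatty acids, was 8.36, 9.45, 10.76, 11.56 and 10.27 and from 2.85 to 5.0 (median 3.54), a difference of -6.45 ± 0.40 with no tumour above 5.0. Mup3, a major urinary protein, fell by 7.10 ± 1.57 on the log2 scale. Its untreated samples were all above 13 and its tumours from 2.69 to 12.52 (median 4.65), with an SD over the tumours that no other tested gene exceeded. The probes of Mup3 may also read other, near-identical major urinary protein genes.

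Among the endothelial genes, the nuclease Dnase1l3 was 11.13, 11.74, 8.35, 7.16 and 8.38 in untreated cells and from 3.17 to 6.70 (median 4.51) in the tumours, the lectin Clec4g 12.95, 13.18, 11.55, 9.97 and 11.17 and from 4.27 to 9.89 (median 7.65), and the ligand Wnt2, which sinusoidal endothelium sends to hepatocytes, 9.96, 10.15, 7.14, 6.39 and 6.77 and from 3.09 to 5.72 (median 3.82). All 3 were higher in untreated samples 1 and 2 than in samples 3 to 5, and no untreated sample reached down to the tumours. Their differences were -4.59 ± 0.70, -4.48 ± 0.93 and -4.05 ± 0.53. The transcription factor Fos, an immediate early gene, was 11.08, 11.32, 10.87, 11.29 and 10.87 in the untreated cells and from 4.13 to 7.98 (median 6.74) in the tumours. It fell without overlap, by 4.46 ± 0.47 on the log2 scale (adjusted p 2.1e-06). The remaining members of the 15 largest decreases were Hsd3b2 (-4.58 ± 0.65), Sult5a1 (-4.32 ± 0.50), the membrane trafficking protein Ehd3 (-3.83 ± 0.63), the oxysterol hydroxylase Cyp7b1 (-3.48 ± 0.62), Fam193b (-3.32 ± 0.41), Pdilt (-3.19 ± 0.39) and the interleukin-13 receptor chain Il13ra2 (-3.08 ± 0.56).

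Hepatocyte genes were described first by the list of plasma proteins. Of 20 tested plasma protein genes none rose or fell, with a median difference of 0.03, and after quantile normalization none did either. Their mean level per sample was 11.14 to 12.84 in the tumours and 11.53 to 12.95 in the untreated cells, near the top of the array's range, where a difference may be compressed. Transthyretin (Ttr, 0.07 ± 0.18) and fibrinogen beta (Fgb, 0.18 ± 0.20) had adjusted p of 0.79 and 0.49. Transferrin (Trf) and hemopexin (Hpx) passed the p threshold with differences under 1, at 0.66 ± 0.15 and 0.63 ± 0.21. Of 7 genes of gluconeogenesis and glycogen none rose or fell, at a median of 0.11, although glucose-6-phosphatase (G6pc) lay at -2.03 ± 0.93 (adjusted p 0.086). Of 13 hepatocyte markers none rose and 2 fell, Cyp2e1 and the dioxygenase Hpd, also after quantile normalization, with a median of -0.17. Without untreated sample 4 or 5 neither was called, Hpd lying at -2.90 (adjusted p 0.053) and -2.86 (0.057). The mean level of these markers per sample ranged from 10.2 to 12.06 in the tumours and 11.1 to 12.2 in the untreated cells. Hepatocyte transcripts were thus high in all 5 samples sorted for Prom1.

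A part of the enzymes of amino acid, drug and bile acid metabolism fell. Of 15 tested genes of the urea cycle and amino acid breakdown 4 fell and none rose (median -0.68), also 4 after quantile normalization, and 2 without untreated sample 5. The urea cycle enzymes Cps1 (-0.56 ± 0.47) and Otc (-0.82 ± 0.53) did not pass the test. Histidine ammonia-lyase (Hal) was 9.75, 9.29, 10.95, 10.05 and 11.06 in untreated cells and from 5.70 to 10.38 (median 7.60) in the tumours. Its highest tumours overlapped the untreated cells, and the difference was -2.32 ± 0.59. Agxt, which detoxifies glyoxylate, fell by 2.48 ± 0.66 on the log2 scale.

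Of 19 cytochrome P450 genes 6 fell and 2 rose (median -0.92), 7 and 2 after quantile normalization, and 3 fell without untreated sample 3 or 4. Cyp1a2 was 10.40, 10.38, 11.44, 12.46 and 11.84 in untreated cells and from 3.36 to 10.89 (median 8.22) in the tumours, a difference of -3.43 ± 0.91 (adjusted p 0.0057). Cyp2e1, an enzyme of pericentral hepatocytes that oxidises ethanol, was 12.81, 12.44, 12.38, 13.01 and 13 and from 3.56 to 12.86 (median 10.18). Its levels were even in untreated cells and spread over more than 9 units in the tumours, with tumours 10 and 14 lowest at 3.56 and 3.74. The difference of -3.63 ± 1.29 (adjusted p 0.029) did not pass without untreated sample 3 (-3.72, adjusted p 0.054), 4 (-3.56, 0.058) or 5 (-3.56, 0.059). Cyp2c50 and Cyp2d13 differed by -3.39 ± 0.99 and -3.72 ± 0.83, and both belong to families whose members share probe sequence. Cyp17a1, an enzyme of steroid hormone synthesis, was the opposite case, at 2.92, 2.83, 3.21, 3.14 and 3.88 in the untreated cells and from 4.50 to 9.40 (median 6.56) in the tumours. All tumours were above all untreated samples for Cyp17a1, by 3.76 ± 0.62 (adjusted p 1.2e-04).

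Of 17 genes of bile acid synthesis and transport 4 fell and none rose (median -0.93), 6 after quantile normalization and 7 without untreated sample 2. Cyp8b1, which makes cholic acid, was 6.94, 7.17, 10.13, 9.48 and 9.16 in untreated cells and from 2.82 to 8.70 (median 3.62) in the tumours, with most tumours near background and a difference of -4.15 ± 0.89. Slco1a1, an uptake transporter of bile acids and other anions, fell by 5.92 ± 0.85 on the log2 scale (adjusted p 3.8e-05). The rate-limiting enzyme Cyp7a1 (-1.46 ± 1.04, adjusted p 0.27) and the bile acid importer Slc10a1 (-2.23 ± 0.94, 0.063) did not pass. Of 13 zone-specific genes of pericentral and periportal hepatocytes 4 fell and 1 rose (median -0.90), the same counts as after quantile normalization, with none rising after centring and 2 falling without untreated sample 4 or 5.

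Genes that depend on growth hormone, whose pulses give male liver its own gene programme, had the lowest median among the metabolic lists. Of 16 tested, 7 fell and none rose (median -1.79), 8 after quantile normalization, and the groups did not overlap for 4, which were Hsd3b5, Elovl3, Mup3 and Cyp7b1. Slco1a1 and Sult2a8 fell with overlap. The growth hormone receptor Ghr (-0.38 ± 0.43), its target Igf1 (-0.78 ± 0.49) and the feedback inhibitor Socs2 (0.24 ± 0.48) did not pass the test. Since Xist and Eif2s3y also separated the groups, the levels in tumours 11 and 13, which resembled the untreated cells in both transcripts, are given. In these tumours Hsd3b5 was 2.51 and 2.73, Elovl3 3.02 and 4.60, and Slco1a1 3.56 and 4.36, all within the range of the other tumours and far under the untreated cells. Cyp7b1 was 7.34 and 8.74, also within that range. Mup3 was 5.12 in tumour 11 and 11.36 in tumour 13, and Sult2a8 4.76 and 9.58, but Mup3 was also high in tumours 4, 6, 8 and 14, at 12.52, 9.75, 10.59 and 11.15. The part of sex in these differences was not tested, and outside tumours 11 and 13 sex and tumour changed together.

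**Figure D2:**
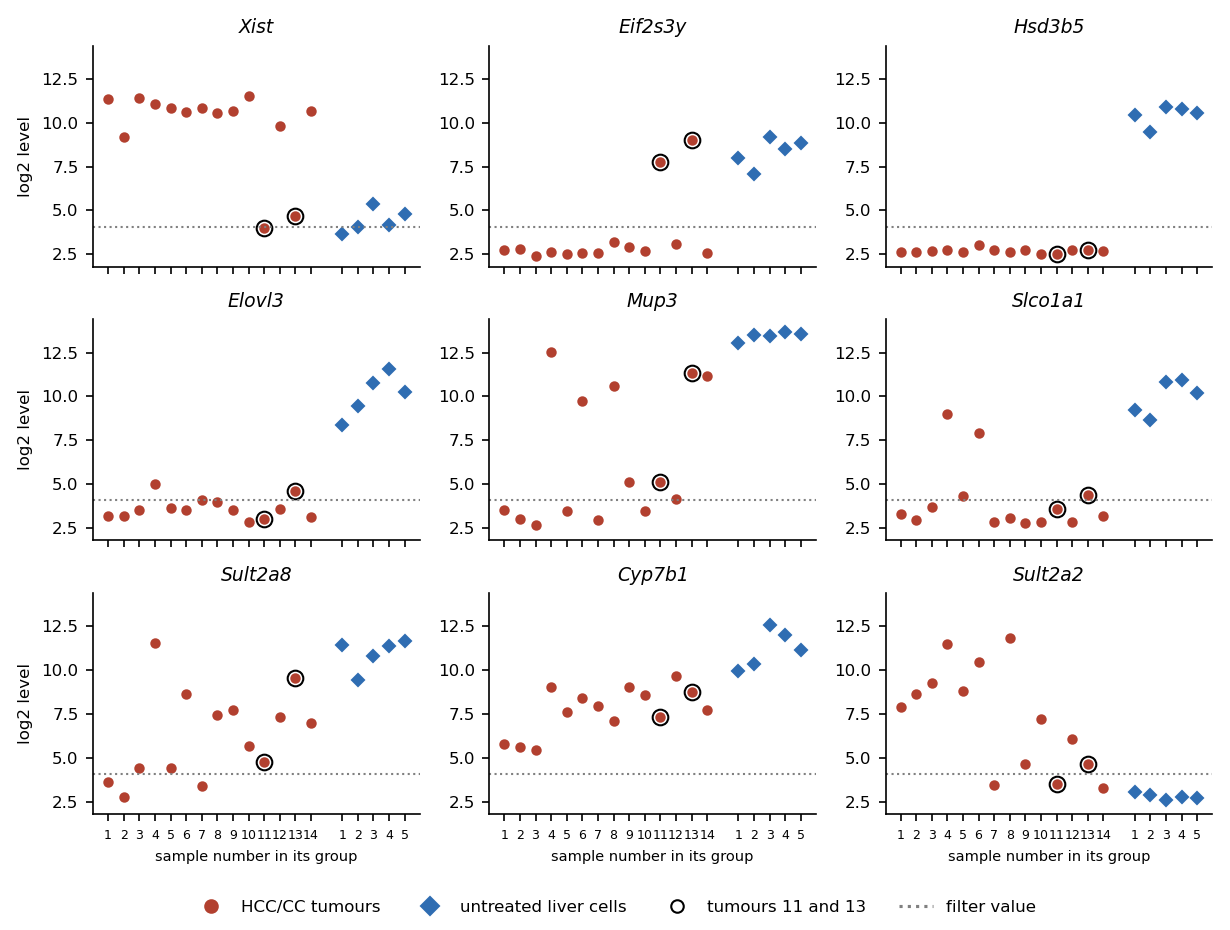
Log2 level of Xist, Eif2s3y, the growth hormone dependent Hsd3b5, Elovl3, Mup3, Slco1a1, Sult2a8 and Cyp7b1, and Sult2a2 in the 14 tumours and 5 untreated samples. Each gene has 1 panel and each sample 1 point, with tumours 11 and 13 circled. Sult2a2 is not on the growth hormone list and rose. In Xist and Eif2s3y the circled tumours lie with the untreated cells, while in Hsd3b5, Elovl3 and Slco1a1 they lie with the other tumours.

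The promoters of the plasma protein genes, which did not pass the test, were examined for the site of a factor known to drive hepatocyte genes. RefSeq promoters (GRCm38.p6), from 250 bases before to 50 after the start site, were matched for 16 of 22 genes of the plasma protein list, which have 18 promoters there. The core of the site of the hepatocyte factor HNF1, GTTAAT or its reverse ATTAAC, was found in 6 of the 18 promoters (33.3%), against 7.1% of all 32851 promoters of that length. The last 120 bases before the start site are printed for Alb (chr5:90460750-90460869, plus strand) and Fgb (chr3:83049864-83049983, minus strand), with this core in capitals.
Alb: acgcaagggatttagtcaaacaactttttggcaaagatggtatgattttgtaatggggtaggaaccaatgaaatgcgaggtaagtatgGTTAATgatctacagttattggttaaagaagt
Fgb: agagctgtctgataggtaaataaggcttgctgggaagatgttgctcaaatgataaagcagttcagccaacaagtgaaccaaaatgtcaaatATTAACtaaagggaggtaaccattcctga
A match is a description of the letters and not a test of binding.

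Acute phase genes were described next. Of 16 tested, 8 rose and 1 fell (median 1.14), the same counts as after quantile normalization. Serum amyloid Saa1 was 5.61, 6.51, 11.43, 9.29 and 7.87 in the untreated cells and from 8.66 to 12.73 (median 11.39) in the tumours, so that untreated samples 3 and 4 lay within the tumour range and the difference was 3.05 ± 0.74 (adjusted p 0.003). The orosomucoid Orm2, a carrier protein of plasma, was 3.96, 3.98, 7.63, 7.02 and 3.70 and from 6.93 to 12.29 (median 10.88), a difference of 5.25 ± 0.83 (adjusted p 8.3e-05). Amyloid P component Apcs (1.88 ± 0.41), the lipopolysaccharide-binding protein Lbp (1.41 ± 0.33), the ferrireductase Steap4 (2.47 ± 0.40) and Saa2 (2.48 ± 0.73) also rose. Saa1 and Saa2 are near-identical and may share signal. Hepcidin (Hamp), the hormone that limits iron export and is itself an acute phase gene, moved the other way. It was 11.80, 11.53, 12.31, 12.79 and 12.15 in untreated cells and from 3.64 to 11.98 (median 6.21) in the tumours, where tumour 4 alone reached 11.98 and the next was 8.91, and it fell by 5.61 ± 0.95 on the log2 scale (adjusted p 1.6e-04).

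Fetal liver genes varied among the tumours. Of 10 tested, 7 rose and 1 fell (median 3.82), also after quantile normalization, and the groups did not overlap for 4. Members were chosen with earlier results of these data known, and Ly6d, which rose, is also among the 15 largest increases. Dlk1 differed by -0.72 and the Hmga2 probe sets above the filter value by -1.03 to -0.83. Alpha-fetoprotein (Afp) was near background in all untreated cells (3.18, 3.34, 2.44, 2.46 and 2.55) and from 3.55 to 11.99 (median 6.16) in the tumours. Tumours 1, 2 and 3 were highest, at 11.18, 10.20 and 11.99, and the difference was 4.0 ± 1.17 (adjusted p 0.01). The growth factor Igf2 was high in tumours 3 and 10 only, at 11.99 and 12.63, and did not pass (1.34 ± 1.34, adjusted p 0.44). The surface proteins Cd24a and Tspan8 and the trefoil peptide Tff3 rose by 4.41 ± 0.99, 5.12 ± 1.21 and 3.86 ± 0.80. Bex1 was 9.01 to 11.42 in 6 tumours and 6.81 or less in the other 8. Its difference of 3.77 ± 1.31 (adjusted p 0.026) did not pass without untreated sample 3 (3.71, 0.057) or 4 (3.62, 0.057), nor with array weights (3.02, 0.069) or the tumours whose title number exceeds 400 (2.87, 0.059).

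Bile duct and progenitor markers were divided. Of 18 tested, 9 rose and 1 fell (median 2.19), 8 and 1 after quantile normalization, and their mean level was 4.78 to 9.83 in the tumours and 4.1 to 5.01 in the untreated cells. Those that rose include Prom1, the marker used for sorting, and Cd24a and Tff3, which the fetal list also holds. Bicc1, an RNA-binding protein, was 5.16, 3.64, 3.58, 3.12 and 5.02 in untreated cells and from 5.55 to 10.26 (median 8.36) in the tumours. All tumours exceeded the untreated cells, by 4.30 ± 0.57 (adjusted p 1.7e-05). Pkhd1, the fibrocystin of bile duct cilia, rose by 2.70 ± 0.47 and the claudin Cldn7 by 3.12 ± 0.95. The water channel Aqp1, which endothelium also expresses, was 13.23, 13.26, 11.05, 10.06 and 11.19 in untreated cells and from 8.19 to 10.36 (median 8.97) in the tumours. It was highest in untreated samples 1 and 2 and fell by 2.74 ± 0.41 on the log2 scale.

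The adhesion molecule Epcam was 4.75, 4.51, 3.32, 3.26 and 4.64 in the untreated cells and from 3.50 to 12.24 (median 6.26) in the tumours. Tumours 2 and 11 stood apart at 12.24 and 11.78, and the next, tumour 5, was 9.13. The same tumours were highest for Krt19, at 11.58 and 10.93 against 7.57 or less in the others, and for Krt7, at 11 and 8.94. They also had the lowest albumin, 13.14 and 13.60. The group difference of Epcam was 2.82 ± 1.12 at an adjusted p of 0.049, and it did not pass in 13 of the 19 fits that left out 1 sample, nor with quantile normalization (2.73, 0.059) or centring (2.45, 0.069). A second probe set of Epcam differed by -0.24. Krt19 (2.01 ± 1.08, adjusted p 0.14) and Krt7 (2.15 ± 0.97, 0.082) did not pass. Anxa13, an annexin of epithelia, rose by 3.51 ± 1.31 (adjusted p 0.037), a call lost in 9 of those 19 fits and with centring.

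Among the 14 tumours, 6 pairs of genes were correlated, with p-values from 100000 two-sided permutations adjusted over the 6. Epcam went with Col1a1, the chain of fibrillar collagen, at r 0.77 (p 0.0018, adjusted 0.011) and rho 0.75 (p 0.0034, adjusted 0.02). Without tumours 2 and 11 r was 0.74. Without tumour 11 alone r was 0.69 at an adjusted p of 0.062. Epcam and Alb had r -0.73 (p 0.0046, adjusted 0.014) but rho -0.28 (p 0.33, adjusted 0.66), and r was 0.01 without tumours 2 and 11, so that this relation rests on those tumours. The other pairs did not pass: Alb with Mki67 (r -0.38, p 0.18, adjusted 0.29; rho -0.29, p 0.3, adjusted 0.66), Alb with Prom1 (r -0.37, p 0.19, adjusted 0.29; rho 0.06, p 0.83), Epcam with Prom1 (r 0.19, p 0.52; rho 0.17, p 0.56, adjusted 0.83) and Afp with Igf2 (r 0.31, p 0.29, adjusted 0.35; rho 0.09, p 0.76). Without the tumours farthest from the median, r of these pairs was -0.10, 0.42, -0.34 and -0.16.

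**Figure D3:**
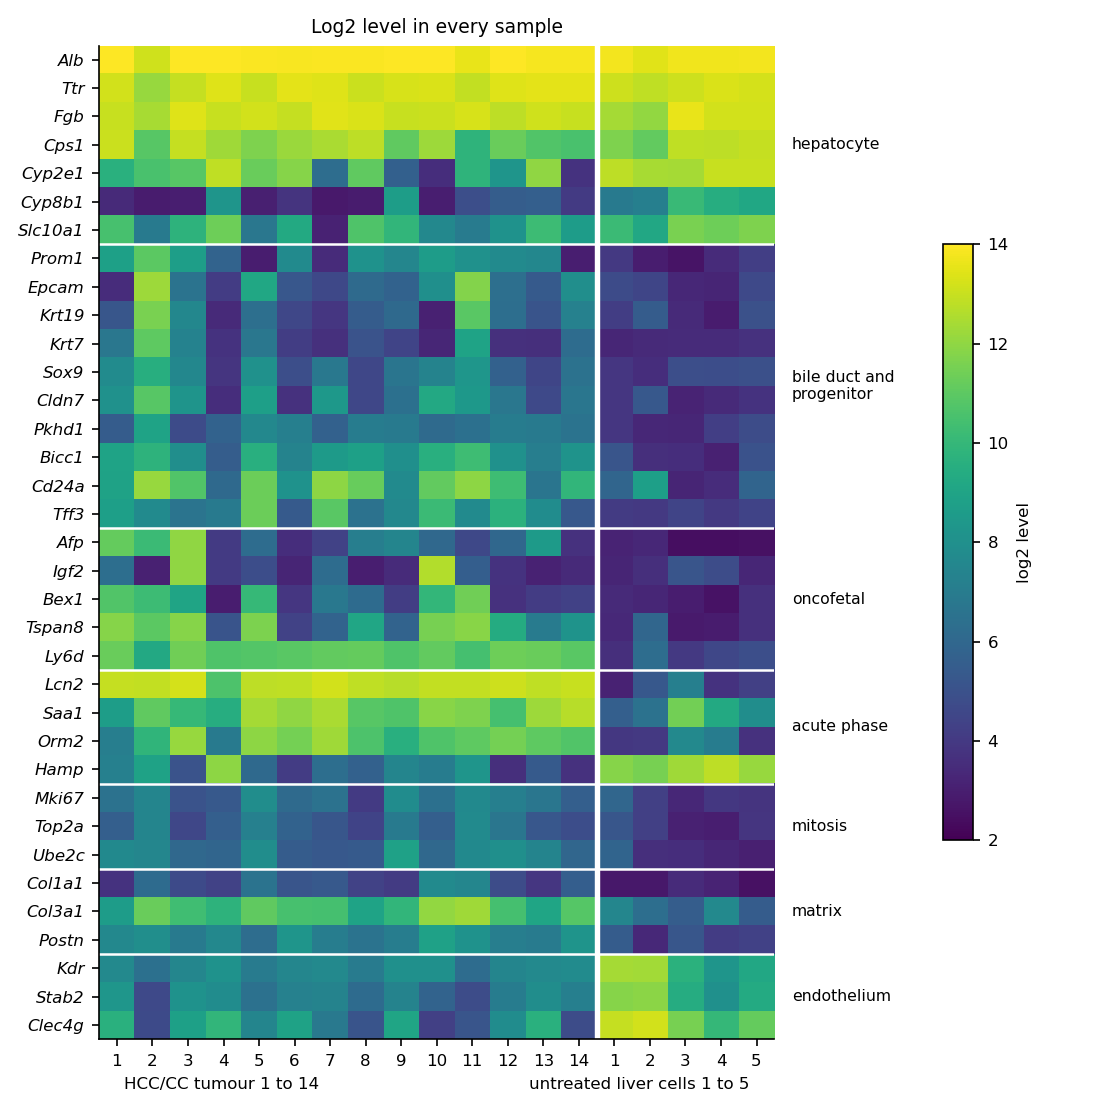
Log2 level of selected genes (rows) in each of the 14 tumours and 5 untreated samples (columns), with colour from 2 to 14. Tumours 2 and 11 are bright in Epcam, Krt19 and Krt7, tumours 1 to 3 in Afp, and the untreated columns in the endothelial genes.

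Most of the genes of mitosis and DNA replication tested rose. Of 19 tested proliferation genes 14 rose and none fell (median 1.36), 13 after quantile normalization, 9 after centring and 9 without untreated sample 3. The proliferation antigen Mki67 was 5.95, 4.27, 3.34, 3.94 and 3.79 in untreated cells and from 4.04 to 7.87 (median 6.51) in the tumours. Untreated samples 1 and 2, at 5.95 and 4.27, lay within the tumour range and samples 3 to 5 under it. The difference was 2.20 ± 0.54 (adjusted p 0.0032). The ubiquitin-conjugating enzyme Ube2c, which acts in the exit from mitosis, was 5.85, 3.60, 3.57, 3.31 and 3.05 and from 5.32 to 8.85 (median 6.73), a difference of 2.92 ± 0.56. The topoisomerase Top2a (2.04 ± 0.51), the mitotic kinase Cdk1 (1.82 ± 0.45), its cyclins Ccna2 (2.14 ± 0.47) and Ccnb2 (1.94 ± 0.44) and the activator of the anaphase-promoting complex Cdc20 (1.73 ± 0.48) rose with overlap between the groups. With the mean of its probe sets Top2a differed by 0.59 and was not called. With untreated sample 1 as the only control, a setting chosen after the data were seen, the difference of Mki67 was 0.51 and that of Cdk1 0.49, and neither was called.

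Of 25 tested replication genes 15 rose and 1 fell (median 1.17), 11 after quantile normalization and 8 after centring. Rrm2, the subunit of ribonucleotide reductase that is limiting for DNA synthesis, was 3.90, 3.73, 3.51, 3.75 and 3.42 in untreated cells and from 5.36 to 8.11 (median 7.02) in the tumours. No tumour reached down to the untreated cells, at a difference of 3.25 ± 0.41 (adjusted p 1.0e-05). The clamp loader subunit Rfc4 (2.32 ± 0.26), the licensing factor Cdt1 (2.54 ± 0.40) and the helicase subunits Mcm2 (1.64 ± 0.34) and Mcm6 (2.20 ± 0.44) rose, as did cyclin E1 (Ccne1, 1.39 ± 0.33). Mcm10, a replication factor, was the 1 member that fell, at -2.83 ± 0.63. Only 1 of its 3 probe sets was above the filter value.

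The promoters of the proliferation list were examined for the elements by which cell cycle genes are known to be repressed and activated. RefSeq promoters were matched for 17 of 22 genes, which have 18 promoters there. The cell cycle homology region, TTTGAA or TTTAAA on both strands, was found in 16 of 18 promoters (88.9%) against 27.6% of all 32851, and the CCAAT box, on both strands, in 16 of 18 (88.9%) against 37.4%. Both occurred in 15 of 18 (83.3%) against 10.7%. The last 120 bases before the start site are printed for Cdc20 (chr4:118437344-118437463, minus strand), Cdk1 (chr10:69352913-69353032, minus strand), Top2a (chr11:99024190-99024309, minus strand) and Ube2c (chr2:164769809-164769928, plus strand), which all rose, with both elements in capitals.
Cdc20: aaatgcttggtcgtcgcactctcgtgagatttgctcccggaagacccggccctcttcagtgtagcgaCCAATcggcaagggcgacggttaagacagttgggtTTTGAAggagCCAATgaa
Cdk1: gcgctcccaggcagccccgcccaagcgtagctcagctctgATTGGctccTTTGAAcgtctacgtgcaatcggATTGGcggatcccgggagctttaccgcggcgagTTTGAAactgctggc
Top2a: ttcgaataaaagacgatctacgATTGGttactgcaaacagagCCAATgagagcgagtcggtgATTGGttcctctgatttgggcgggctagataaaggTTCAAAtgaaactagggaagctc
Ube2c: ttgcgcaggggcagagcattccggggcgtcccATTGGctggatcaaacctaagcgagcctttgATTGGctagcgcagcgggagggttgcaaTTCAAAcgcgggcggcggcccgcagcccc
No binding was measured, and a match describes only the letters of the window.

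Signalling lists were mixed. Of 14 tested Wnt targets 6 rose and 3 fell (median 0.90), 4 and 3 after quantile normalization. The feedback inhibitors Notum and Nkd1, which Wnt signalling induces, fell by 2.30 ± 0.46 and 1.45 ± 0.38 on the log2 scale. Nkd1 was not called with the mean of its probe sets (-0.86) or with array weights (-0.63, adjusted p 0.063). Notum was 4.64, 5.03, 5.77, 7.76 and 7.33 in the untreated cells and from 2.98 to 5.51 (median 3.53) in the tumours. Axin2, the most general target, was near background in the tumours (-0.52 ± 0.20). The members that rose included the adhesion receptor Cd44 (2.12 ± 0.56) and the transcription factor Prox1 (2.31 ± 0.48). Of 14 Notch pathway genes 3 rose and 1 fell (median 0.19), near the shares over all tested genes, 17.4% and 6.23%. The counts were 2 and 1 after quantile normalization and 2 and 2 after centring. The ligand Jag1 was 2.57, 2.78, 2.48, 2.67 and 2.50 in the untreated cells and from 3.21 to 7.22 (median 4.08) in the tumours, a difference of 1.96 ± 0.48, which was 0.96 and not called with the mean of its probe sets.

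Of 15 genes that report the MAPK pathway none rose and 1, Phlda1, fell (-1.91 ± 0.50), also after quantile normalization, with a median of -0.02. Of 13 YAP targets 6 rose and 2 fell (median 0.97), also after quantile normalization. Ajuba, a scaffold protein of the Hippo pathway, was 4.89, 3.95, 4.07, 4.47 and 5.34 in untreated cells and from 7.32 to 9.07 (median 8.07) in the tumours, without overlap at a difference of 3.56 ± 0.29 (adjusted p 1.2e-07). The matricellular protein Ccn2 rose by 3.60 ± 0.60. Of 15 p53 targets and cell cycle inhibitors 5 rose and none fell (median 0.98), 4 after quantile normalization and 8 without untreated sample 2. They included the inhibitors Cdkn1a (2.01 ± 0.49) and Cdkn2c (1.87 ± 0.39).

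Of 20 genes of hypoxia and glycolysis 10 rose and none fell (median 1.23), 7 after quantile normalization, 4 after centring and 6 without untreated sample 3. The prolyl hydroxylase Egln3, a target of hypoxia-inducible factor, was 4.72, 3.02, 4.06, 5.16 and 5.10 in untreated cells and from 6.97 to 10.46 (median 8.27) in the tumours, without overlap at 3.99 ± 0.43 (adjusted p 2.4e-06). Hexokinase Hk2, which is scarce in normal hepatocytes, rose by 2.98 ± 0.51 and Ankrd37 by 2.89 ± 0.53. Of 18 genes of glutathione metabolism and the Nrf2 response 7 rose and none fell (median 1.18), 4 after quantile normalization and 4 without untreated sample 3. Among them Cbr3 (4.32 ± 0.46), sulfiredoxin Srxn1 (2.27 ± 0.37), glutathione reductase Gsr (1.61 ± 0.27) and the glutathione transferase Gstm3 (2.30 ± 0.65) rose. Of 15 lipid synthesis genes 3 rose and 1 fell (median 0.97), near the shares over all tested genes, 17.4% and 6.23%. The counts were the same after quantile normalization, with 1 and 1 after centring. Squalene epoxidase (Sqle) rose by 2.81 ± 0.57, and Cyp51, another enzyme of cholesterol synthesis, by 1.69 ± 0.50, a call lost with centring (1.32, 0.057).

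**Figure D4:**
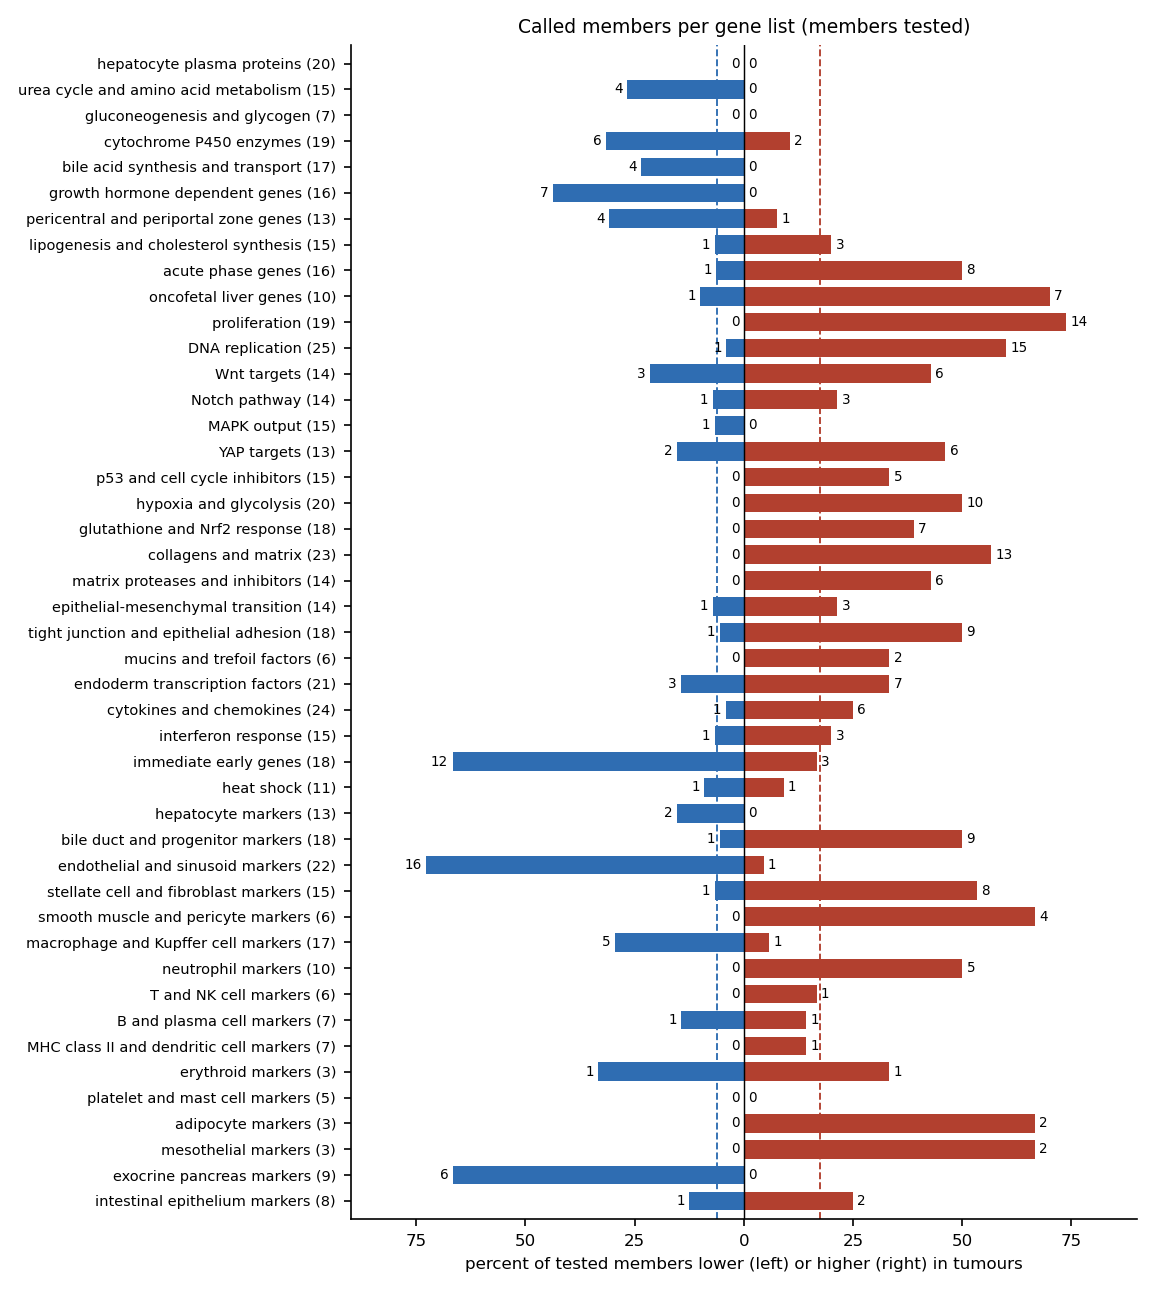
Percent of the tested members of each gene list that fell (left) and rose (right) in the tumours, with dashed lines at the shares over all tested genes, 6.23% and 17.4%. Among lists of at least 15 genes, proliferation (14 of 19) reaches farthest right and endothelial markers (16 of 22) farthest left.

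Of 23 tested collagens and matrix proteins 13 rose and none fell (median 1.19), 11 and 1 after quantile normalization, 10 and 2 after centring, and the groups did not overlap for 6. The fibrillar collagen chain Col3a1 was 7.49, 6.35, 5.52, 7.64 and 5.48 in untreated cells and from 8.65 to 12.31 (median 10.47) in the tumours. Every tumour was above every untreated sample, by 3.91 ± 0.52 (adjusted p 1.8e-05). Col1a1 rose by 2.34 ± 0.55, the proteoglycan lumican (Lum) by 3.86 ± 0.52 and periostin (Postn) by 2.97 ± 0.38. Of 14 matrix proteases and their inhibitors 6 rose and none fell (median 1.43), also after quantile normalization. The plasminogen activator Plat was near background in all untreated cells (3.25, 2.70, 3.14, 2.95 and 3.08) and from 4.56 to 8.58 (median 6.82) in the tumours, a difference of 3.78 ± 0.52. The metalloprotease inhibitor Timp1 (3.40 ± 0.70) and the macrophage elastase Mmp12 (2.42 ± 0.66) also rose.

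Of 14 genes of the epithelial-mesenchymal transition 3 rose and 1 fell (median 0.31), near the shares over all tested genes, 17.4% and 6.23%. The counts were 2 and 1 after quantile normalization and 2 and 2 after centring. Of 18 junction and adhesion genes 9 rose and 1 fell (median 1.46), 6 and 1 after quantile normalization, and 5 rose without untreated sample 2. Desmoplakin (Dsp) was 7.84, 4.36, 7.82, 8.61 and 8.17 in untreated cells, lowest in sample 2, and from 8.66 to 10.59 (median 9.95) in the tumours, a difference of 2.45 ± 0.47. The desmosomal cadherin Dsc2 rose by 2.14 ± 0.36, and keratin 8 (Krt8) by 2.49 ± 0.30 from 9.43, 8.64, 9.79, 10.22 and 10.08. The 1 member that fell, claudin-5 (Cldn5, -2.07 ± 0.60), is the claudin of endothelium, and it was not called with array weights (-0.67, adjusted p 0.22). Of 6 mucin and trefoil genes 2 rose and none fell (median 1.29), also after quantile normalization, and 1 rose after centring. Of 21 endoderm transcription factors 7 rose and 3 fell (median 0.51), 6 and 3 after quantile normalization, and 4 rose without untreated sample 2. Beside Sox4 and Prox1 the epithelial factor Elf3 (2.25 ± 0.47) and Gata6 (1.54 ± 0.39) rose, and Gata6 was not called with array weights (0.97).

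Most endothelial genes fell. Of 22 tested markers of endothelium and sinusoids 16 fell and 1 rose (median -1.89), 16 and none after quantile normalization, with 11 falling without untreated sample 1 and 12 without sample 2. The vascular endothelial growth factor receptor Kdr was 12.37, 12.33, 9.68, 8.26 and 9.21 in untreated cells and from 6.22 to 8.12 (median 7.57) in the tumours. The lowest untreated sample was still above every tumour, and the difference was -2.95 ± 0.51 (adjusted p 1.8e-04). The scavenger receptor Stab2 of sinusoids was 11.82, 11.91, 9.42, 8.04 and 9.34 and from 4.67 to 8.29 (median 7.23), a difference of -3.23 ± 0.63, the sinusoidal protein Oit3 fell by 3.96 ± 0.75 and the angiopoietin receptor Tek by 2.88 ± 0.57 on the log2 scale. The 5 markers that did not pass included the general endothelial Pecam1 (-0.77 ± 0.59) and Plvap (0.34 ± 0.42). The mean level of the list was 5.83 to 7.14 in the tumours and 6.51 to 10.58 in the untreated cells.

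Of 15 stellate cell and fibroblast markers 8 rose and 1 fell (median 1.08), 5 and 2 after quantile normalization, and 5 rose without untreated sample 2. Smooth muscle actin (Acta2) was 5.14, 4.75, 3.73, 4.78 and 3.88 in untreated cells and from 6.61 to 9.37 (median 8.59) in the tumours, without overlap at 3.76 ± 0.44 (adjusted p 4.6e-06). Of 6 smooth muscle and pericyte markers 4 rose and none fell (median 1.72), 3 after quantile normalization.

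Macrophage markers divided. Of 17 tested, 5 fell and 1 rose (median -0.46), 7 and 1 after quantile normalization. Those that fell are known from resident macrophages: the Kupffer cell lectin Clec4f was 10.15, 10.87, 8.78, 8.47 and 8.30 in the untreated cells and from 2.84 to 8.56 (median 6.34) in the tumours, with a difference of -3.23 ± 0.85. The scavenger receptor Cd163 fell by 3.39 ± 0.58, Cd5l by 2.85 ± 0.81 and the mannose receptor Mrc1, which sinusoidal endothelium shares, by 2.20 ± 0.38 on the log2 scale. Ms4a7 rose by 2.99 ± 0.58, and general markers such as Adgre1 (-0.46 ± 0.36), Csf1r (-0.57 ± 0.30) and C1qa (-0.04 ± 0.36) did not pass.

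Of 10 neutrophil markers 5 rose and none fell (median 1.48), also after quantile normalization, and 3 rose after centring. Lcn2, which led the largest increases and is also on the acute phase list, is among those that rose. S100a8, a calcium-binding protein of neutrophils, was 5.18, 7.56, 4.85, 3.48 and 3.32 in untreated cells and from 4.43 to 11.35 (median 9.06) in the tumours, with the lowest tumours inside the untreated range, at a difference of 4.07 ± 0.88. Its partner S100a9 rose by 2.99 ± 0.84. Of 6 T and NK cell genes 1 rose and none fell, and of 7 B cell genes 1 rose (the adaptor Blnk, 2.69 ± 0.68) and 1 fell, with medians of -0.19 and -0.01. Quantile normalization gave the same counts for the former and 1 and 2 for the latter. Of 7 genes of antigen presentation by MHC class II 1 rose (median 0.48), also after quantile normalization, and none after centring. Of 5 platelet and mast cell genes none rose or fell (median -0.20), while 1 fell after quantile normalization.

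Of 8 listed adipocyte markers 3 were tested and 2 rose, at a median of 2.40, also after quantile normalization. The fat cell hormones Adipoq and Lep were under the filter value in both groups, and Retn differed by -0.40. The members that rose were the fatty acid carrier Fabp4 (2.40 ± 0.69) and the lipid droplet protein Cidea. Cidea was near background in untreated cells (2.87, 3.48, 3.45, 4.13 and 3.01) and from 3.85 to 12.23 (median 9.41) in the tumours, a difference of 5.34 ± 1.22. Of 3 mesothelial markers the simple epithelial keratins Krt8 and Krt18 rose (median 1.66), also after quantile normalization. Of 8 intestinal epithelial genes 2 rose and 1 fell (median 1.88), also after quantile normalization. Of 3 erythroid genes 1 rose and 1 fell (median 0.19), also after quantile normalization. The member that rose, the haemoglobin chain Hba-a1, was 12.23, 12.14, 9.12, 9.15 and 9.84 in the untreated cells and from 10.14 to 13.75 (median 12.86) in the tumours. Red cells had been lysed before sorting, and the part of this step was not tested.

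Of 9 exocrine pancreas genes 6 fell and none rose (median -1.98), also after quantile normalization, but 1 fell without untreated sample 1. The carboxypeptidase Cpa1 was 10.23, 5.26, 4.47, 4.92 and 4.27 in the untreated cells and at most 4.85 in the tumours. This list was high in 1 untreated sample, at a mean level of 9.98 against 4.14 in the lowest.

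Most immediate early genes fell. Of 18 tested, 12 fell and 3 rose (median -1.57), 12 and 2 after quantile normalization and 14 and 1 after centring, and 1 rose without untreated sample 3. Egr1 was 10.41, 10.84, 10.99, 11.73 and 11.89 in the untreated cells and from 7.20 to 11.32 (median 8.41) in the tumours, a difference of -2.41 ± 0.50. The phosphatase Dusp1, which switches off MAP kinases, was 11.77, 12.13, 11.31, 11.54 and 11.83 and from 8.72 to 10.65 (median 9.42), without overlap at -2.19 ± 0.27 (adjusted p 8.4e-06). Jun (-2.22 ± 0.35) and the cytokine feedback inhibitor Socs3 (-3.04 ± 0.52) fell too, while Klf6 rose (1.88 ± 0.46). Untreated cells had been dissociated and bound to beads and tumours had not, and the part of this handling was not tested within liver. Of 11 heat shock genes 1 fell and 1 rose (median -0.01), 2 and 1 after quantile normalization and 3 and none after centring. The inducible chaperone Hspa1b was 11.54, 11.92, 11.97, 11.75 and 11.17 in untreated cells and from 5.02 to 11.47 (median 8.72) in the tumours, at -2.90 ± 0.66.

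Of 24 cytokines and chemokines 6 rose and 1 fell (median 0.15), 4 and 1 after quantile normalization, with 2 rising without untreated sample 3 and 3 without sample 4. The alarmin Il33 rose by 2.51 ± 0.55 and the chemokine Cxcl14 by 3.22 ± 0.80, while interleukin-1 alpha (Il1a) fell without overlap, by 1.85 ± 0.34 on the log2 scale. Of 15 interferon response genes 3 rose and 1 fell (median 0.32), near the shares over all tested genes, 17.4% and 6.23%. The counts were 1 and 2 after quantile normalization.

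In every organ the tumours were dissected and the cells sorted, so that what handling adds alike on the log2 scale cancels when organs are compared. The liver difference was therefore compared with the mean of the differences between tumours and sorted cells in 5 other organs. These were prostatic adenocarcinoma (8 tumours, 3 sorted samples), gastric adenocarcinoma (4 and 2), uterine carcinoma (3 and 4), small intestinal adenoma (3 and 3) and bronchopulmonary adenocarcinoma of lung (2 and 4). RNA quality was not alike across organs. The mean 3' minus 5' signal of Gapdh was 0.397 in tumours and 1.103 in cells of liver. It was 0.531 and 1.022 in prostate, 0.376 and 0.676 in stomach and 0.372 and 0.63 in uterus. Small intestine had 0.253 and 0.522, and lung 0.727 and 1.02. The gap was widest in liver, so that its effect need not cancel, and its part was not tested. Both comparisons contain the same liver samples, so that their results are not independent and are given side by side. Of 13160 genes tested with 43 residual degrees of freedom, the liver difference was higher than in the other organs for 1531 (11.6%) and lower for 1123 (8.53%). Increases were 57.7% of these calls, 47.2% after quantile normalization and 51.8% after centring.

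Prom1 itself differed. In liver its tumour difference was 3.63, in small intestine 2.01, and in lung, prostate, uterus and stomach -1.63, -0.94, -3.91 and -5.93. The liver exceeded the mean of the others by 5.71 ± 1.08 (adjusted p 8.2e-05). The cells were sorted for prominin-1, so the effect of sorting on Prom1 need not be alike between organs and may not cancel. In the untreated liver cells Prom1 lay at 2.64 to 4.24, and the part of sorting in this excess was not tested. Spink1, a trypsin inhibitor, was also higher in the liver contrast. It differed by 3.86 in liver and -8.0 to -0.13 in the other organs, an excess of 7.37 ± 1.52 (adjusted p 2.3e-04). In the liver tumours Spink1 ranged from 3.14 to 10.99.

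Orm2 differed by 5.25 in liver and by -0.31 to 0.45 in the others, an excess of 5.29 ± 0.67. Hsd3b5 differed by -7.74 and by -0.24 to 0.05, which left -7.65 ± 0.16 (adjusted p 3.1e-38). Serpina4-ps1 (-7.17 ± 0.61), Elovl3 (-6.29 ± 0.33), Slco1a1 (-5.64 ± 0.69), Hamp (-5.18 ± 0.78) and Sult2a8 (-4.51 ± 0.88) were likewise lower in the liver contrast, with differences of -1.18 to 0.13 in the other organs. Mup3 (-5.89 ± 1.36) was lower too, although stomach tumours differed by -8.45. So was the insulin-like growth factor binding protein Igfbp2 (-7.03 ± 1.09), which was 9.66, 9.38, 11.54, 11.14 and 11.28 in the untreated liver cells and from 3.19 to 11.30 (median 5.85) in the liver tumours, while the other organs differed by -0.57 to 6.37. Rragd (6.01 ± 0.72), Ubd (5.51 ± 0.93), Mogat1, an enzyme of triglyceride synthesis (5.45 ± 0.77), the recombination gene Rad51b (5.24 ± 0.77), the defensin Defb1 (5.20 ± 0.83) and the chemokine Ccl2 (5.31 ± 0.64) were higher. The difference was -4.87 for Rragd in small intestine, -5.53 for Mogat1 in stomach and -3.17 for Defb1 in prostate. Ccl2 differed by -6.95 to 1.64 in the other organs and rose by 2.0 ± 0.68 within liver, a call lost without untreated sample 3 (1.73, 0.08) or 5 (1.67, 0.083). Xist (6.79 ± 1.18) and Eif2s3y (-5.19 ± 1.02) were among the genes with the largest excess and deficit. Both follow the sex pattern of the liver samples given above.

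Moxd1, an enzyme related to dopamine hydroxylase, was low in all liver tumours, from 2.92 to 3.65 (median 3.41), and high in untreated samples 3 and 4 alone (2.81, 3.73, 11.10, 9.88 and 3.11). Its liver difference of -2.75 ± 0.94 did not pass without sample 3 (-1.50, adjusted p 0.14) or 4 (-1.81, 0.12) or in the tumours whose title number exceeds 400 (-2.76, 0.067), and against other organs it was -4.60 ± 0.90.

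The gene lists were counted in this contrast too, and a part of them is given, to be read against the shares of 11.6% and 8.53%. Of 17 Wnt targets none was higher and 4 were lower, and of 18 MAPK genes none and 6. Of 10 smooth muscle markers none was higher and 3 were lower, and of 17 stellate cell and fibroblast markers 3 and 2. Of 18 glutathione genes 7 were higher and none lower, and of 16 acute phase genes 7 and 2. Of 22 endothelial markers the liver difference was lower than in the other organs for 16 and higher for none, at a median of -1.91. Kdr differed by -2.95 in liver and -2.39 in lung, but by 1.17 in prostate, 1.09 in small intestine, 0.50 in stomach and -0.27 in uterus. Of 16 growth hormone dependent genes 8 were lower and none higher (median -1.55). Of 19 immediate early genes 6 were higher and none lower (median 0.13). Fosb differed by -1.79 in liver and by -7.89 to -3.29 in the other organs, an excess of 3.76 ± 0.40, and Klf6 had an excess of 2.84 ± 0.42. For Fos the contrast was -0.96 ± 0.48 and did not pass limma's test (adjusted p 0.12).

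Of 26 cytokines and chemokines 14 were higher and none lower (median 1.85). Of 24 collagens and matrix genes 1 was higher and 9 were lower (median -0.14). Tenascin-C (Tnc) rose by 1.61 in liver and differed by 0.53 to 6.42 in the other organs, a deficit of -2.38 ± 0.68 (adjusted p 0.006) that was the 1 call among the genes named here not kept under every setting (-1.78, 0.059 without stomach). The metalloprotease Mmp19 had an excess of 2.91 ± 0.47. Of 21 proliferation genes 1 was higher and 1 lower (median 0.41). Lcn2 was 8.04 in liver and 7.90 in lung, and from 0.06 to 5.29 in the others.

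**Figure D5:**
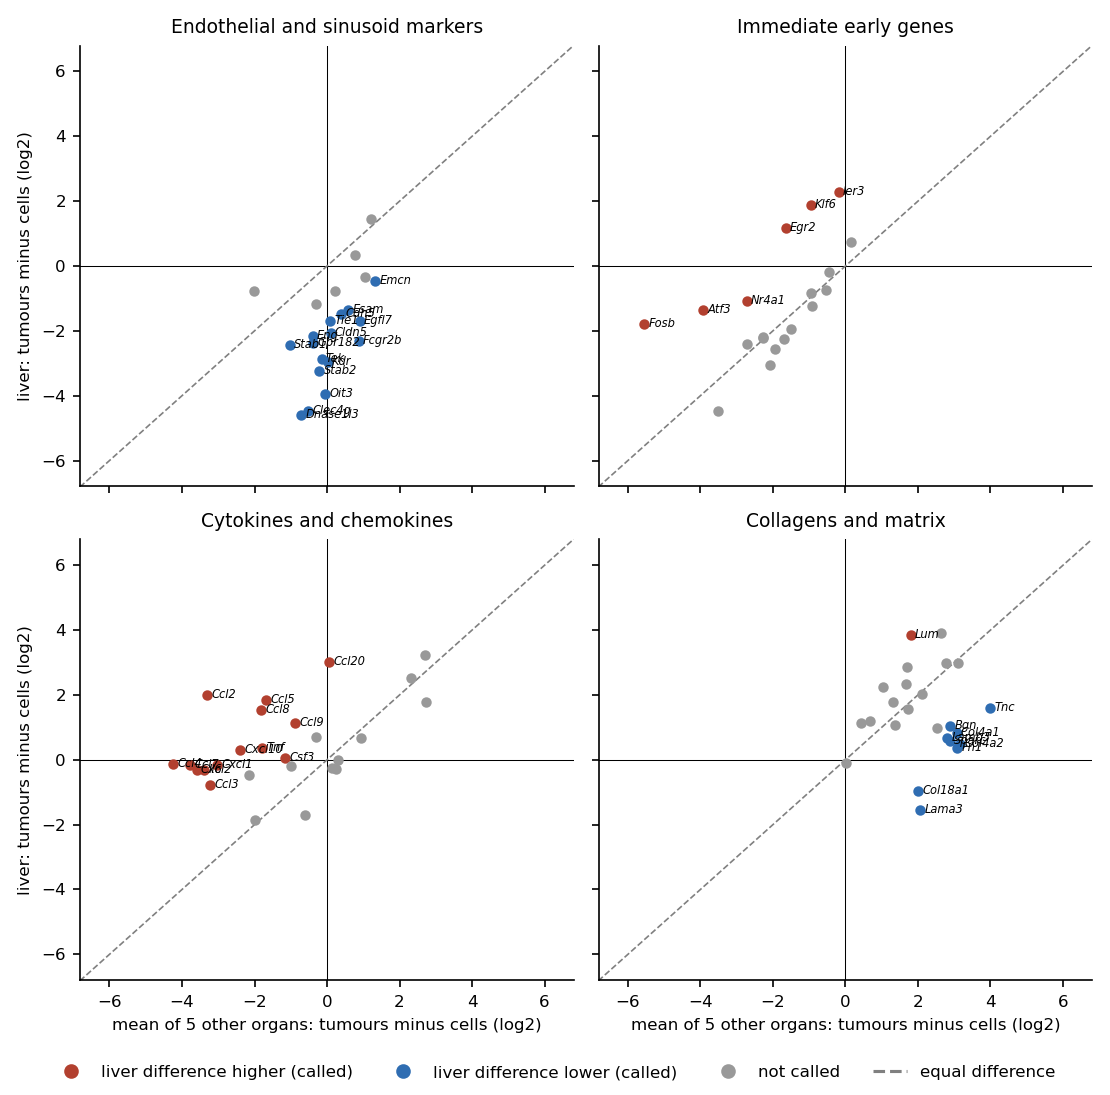
Difference between tumours and sorted cells on the log2 scale in liver (vertical axis) against the mean of 5 other organs (horizontal axis), 1 panel each for endothelial, immediate early, cytokine and collagen genes, red and blue where the liver difference was called higher or lower. Of 22 endothelial genes 16 are blue, and of 26 cytokine genes 14 are red.

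The spread among the tumours was described last. The median SD over all tested genes was 0.46 in the tumours and 0.60 in the untreated cells, and the 90th percentile in the tumours was 1.08. The 10 genes with the largest SD over tumours were Mup3 (SD 3.77), the antimicrobial lectins Reg3b (3.70) and Reg3g (3.17), Igf2 (3.17), the oestrogen sulfotransferase Sult1e1 (3.15), the carbonic anhydrase Car3 (3.15), Anxa13 (3.12), Bex1 (3.12), the carboxylesterase Ces3b (3.12) and Cyp2e1 (3.08).

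These genes marked different tumours. Reg3b was at least 10 in tumours 11, 12 and 13 (13.07, 11.30 and 10.32) and Reg3g in tumours 2 and 11 (11.55 and 13.05), with untreated cells at 2.67, 4.69, 2.94, 3.01 and 3.35 and 3.46, 3.80, 3.66, 3.37 and 3.99. Neither passed the test between the groups (3.05 ± 1.55 and 2.18 ± 1.33, adjusted p 0.12 and 0.19). Sult1e1 was 7.51 to 10.22 in tumours 1, 2, 3, 5, 7 and 8 and at most 4.15 in the others (2.39 ± 1.32, adjusted p 0.15). Car3 and Ces3b, which normal hepatocytes express at high level, were lowest in tumours 1 to 3, at 7.53, 3.38 and 5.58 and at 3.48, 5.37 and 3.48, the tumours with the highest Afp. Their untreated cells lay at 12.56 to 13.49 and 11.44 to 12.97, and neither group difference passed (-2.17 ± 1.32 and -3.0 ± 1.31, adjusted p 0.19 and 0.071).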

How the data were processed

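RNA was measured on 1-colour Affymetrix HT MG-430 PM arrays with 45141 probe sets. The authors deposited log2 values, made with Partek 6.6 per the submitters' processing notes, with background correction and normalization not given in the sources used here. Values were used as deposited. Probe sets were named through the array annotation, whose build is not stated: 104 were controls, 551 listed several genes and 15588 were unnamed, and 1 shared its symbol with another gene, leaving 28897 of 17097 genes. Each gene was read from its probe set with the highest mean over all samples. limma 3.58.1 (R 4.3.3) was fitted with an intensity trend to the groups compared, with the filter and thresholds stated in the text, and checked on simulated data. Named genes were Prom1, the 15 largest increases and decreases without overlap, the 10 largest differences from other organs in each direction, the 10 largest SDs over tumours and members of 45 gene lists. Members and lists were chosen with earlier results of these data known. Alternatives covered scaling, filter, probe sets, weights, prior, samples and organs. Precision is limited by 5 untreated arrays. Promoters are from RefSeq (GRCm38.p6).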

Additional observations from a re-analysis of the deposited data

Results flagged for a closer look

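Among the genes named for the comparison within liver, the 5 untreated samples of 10 held a value far from the others, judged by its gap to the nearest sample as a share of the range. These are 5.85% of the genes examined, close to the 1 in 20 such groups that chance gives, and the 14 tumours were not examined this way. Of these 10 values 5 lay in untreated sample 1, 4 in sample 2 and 1 in sample 3. Sample 1 was high for the pancreatic carboxypeptidase Cpa1 (10.23 against 4.27 to 5.26), the recombination gene Rad51b (7.11 against 3.02 to 3.82), the mitotic enzyme Ube2c (5.85 against 3.05 to 3.60), Clca3a2 (5.95 against 2.74 to 3.22) and Mogat1 (4.54 against 3.0 to 3.29). Sample 2 was low for desmoplakin Dsp (4.36 against 7.82 to 8.61), Agxt (7.56 against 9.0 to 9.49) and Alb (13.48 against 13.73 to 13.80), and high for Tspan8 (5.95 against 2.87 to 3.65). Sample 3 was high for Lbp (10.38 against 8.76 to 8.91).

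The liver difference differed from the mean of the other organs by limma's test of that contrast for many of the genes named, 59 higher and 42 lower, and the 26 whose values are given with this contrast follow. It was higher for the secreted proteins Spink1 (7.37), Orm2 (5.29), Defb1 (5.20), Ccl2 (5.31) and Lcn2 (3.98), for Prom1 (5.71), Xist (6.79), Rragd (6.01), Ubd (5.51), Mogat1 (5.45) and Rad51b (5.24), and for the immediate early and matrix genes Fosb (3.76), Mmp19 (2.91) and Klf6 (2.84). It was lower for the metabolic genes Hsd3b5 (-7.65), Elovl3 (-6.29), Mup3 (-5.89), Slco1a1 (-5.64) and Sult2a8 (-4.51). It was also lower for Serpina4-ps1 (-7.17), Igfbp2 (-7.03), Hamp (-5.18), Eif2s3y (-5.19), Moxd1 (-4.60), the endothelial Kdr (-2.97) and Tnc (-2.38).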

How the results depend on the processing

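In the comparison within liver, 1925 genes rose and 690 fell. Those that rose numbered 1218 after quantile normalization, 995 after centring, 933 with the 5 tumours of title number below 100 and 258 with untreated sample 1 as the only control, a setting added after seeing the data. Those that fell numbered 1207, 1508, 216 and 616 under the same settings. The last setting assumes that a lone control varies like the tumours. Under the other alternatives run both counts stayed within 1.5 times. Leaving out 1 sample at a time gave 1549 to 2291 genes higher and 633 to 733 lower in liver, and 1228 to 1847 higher and 1036 to 1194 lower against other organs. In the same way r ranged from -0.78 to -0.58 for Alb with Epcam, 0.69 to 0.85 for Epcam with Col1a1, -0.46 to -0.30 for Alb with Mki67, -0.44 to 0.09 for Alb with Prom1, -0.11 to 0.37 for Epcam with Prom1 and -0.03 to 0.48 for Afp with Igf2. The cause was not tested.

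Of 144 genes named and called within liver, 137 were called in every fit that left out 1 sample, and the other 7 are given with their values in the text. Of the 144, 47 lost their call with the tumours of title number below 100 and 96 with untreated sample 1 as the only control. Fosb differed by -0.86 with array weights, under the threshold. None of the 144 changed direction under the settings run. Of the 26 genes whose call against other organs is given with values, 25 were called in every fit. Probe sets of Elovl6 (-2.12 to 2.05) and Slco1b2 (-1.56 to 1.95) disagree in sign, with differences beyond 1 in both directions. Those of further genes disagree in sign with 1 side closer to no difference, such as Epcam (-0.24 to 2.82) and Hspa8 (-2.60 to 0.06). Others agree in sign but differ in size, such as those of Tspan8 (1.09 to 5.12) and Cxcl14 (0.74 to 3.22). The same holds for Clec4g (-4.48 to -1.24) and Car3 (-4.14 to -2.17). No paired analysis was possible because the labels of these groups carry no shared replicate numbers. Levels under 4.07 are near background, which limits differences from them.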

Other observations

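The study also holds liver cells sorted in the same way from DDC-treated and from neonatal mice, and several genes that set the tumours apart from the untreated cells had levels there near those of the tumours. Lcn2 was 9.76 to 12.47 in the 9 DDC-treated samples and 9.28 to 9.81 in the 3 neonatal samples, against 3.15 to 7.19 in the untreated cells. Hsd3b5 was 2.37 to 3.17 in the DDC-treated samples and 2.78 to 3.34 in the neonatal samples, against 9.44 to 10.91. Eif2s3y was on average 8.56 in the DDC-treated samples and 8.63 in the neonatal samples, near the untreated 8.31. Prom1 was 3.31 to 9.31 in the DDC-treated samples and 10.23 to 10.38 in the neonatal samples. Afp was 13.43 to 13.64 in the neonatal samples, above every tumour, and 4.07 to 7.79 in the DDC-treated samples.

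The endothelial Kdr and Clec4g and the immediate early gene Fos did not follow that pattern. Kdr was 8.07 to 12.14 in the DDC-treated and 9.40 to 9.65 in the neonatal samples, while the highest tumour was 8.12. Clec4g was 10.71 to 13 and 10.84 to 11.05, above every tumour. Fos was 8.64 to 11.65 and 11.55 to 11.93, and no tumour exceeded 7.98. The 2 hepatoblastomas, dissected like the other tumours, had Lcn2 at 12.06 and 12.83, Hsd3b5 at 2.51 and 2.92, Kdr at 7.03 and 7.48 and Fos at 4.02 and 6.67. These levels were not tested between groups.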
